A study of Caenorhabditis elegans with 40 samples.

Results

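The sites described here are the chromatin regions where HSF-1 binding after heat shock was listed by the authors as lost when HSF-1 was removed from the germline of Caenorhabditis elegans. They were taken as all distinct rows of the authors' germline list and of their shared list after heat shock, the shared list holding sites lost in the germline and also in the soma. The germline list had 100 rows, of which 8 were exact repeats, and gave 92 summits. The shared list gave 257. Together they are 349 of the 441 summits that the authors filed as common to the heat-shocked controls, or 79.1%. Of the other 92 common summits, 64 were in the list lost only in the soma and 28 were in no list. All 349 were found in the file of common summits at the same position and with the same score.

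HSF-1 is the transcription factor that binds heat shock elements upstream of chaperone genes and turns them on when proteins misfold. In the nematode it is also needed without stress, in larval development and in the germline. Auxin-inducible degradation removes a protein from 1 tissue: the degron on that protein is bound by the plant F-box protein TIR1 only where TIR1 is made and only when auxin is present.

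Every animal carried hsf-1::aid::gfp, an HSF-1 fused to the degron and to GFP. In the germline strain, JTL621, TIR1 was driven by the sun-1 promoter (ieSi38), which is active in the germline. Young adults were placed for 2 h on auxin plates (HSF-1 depletion) or on ethanol plates (control), and both groups were then heated for 30 min at 34 °C. HSF-1 was precipitated with an antibody to GFP in 2 libraries per group. Values at 20 °C come from the same strain under the same plates without heating, and soma values from strain JTL611, in which TIR1 was driven by the eft-3 promoter (ieSi57). Both strains also carry the unc-119(ed3) mutation with an unc-119(+) copy in the TIR1 transgene. The labels do not say whether the 2 libraries of each group were separate cultures.

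The lists hold no value per library or per group, so the spread between replicates and the sequencing depth are unknown. Each row gives a summit with a peak score, and the region of the depletion comparison that contains it with a differential score. Per its header, the germline differential score is a negative log p-value, of unstated base, and by the region names it is for ethanol over auxin in the germline strain. A high score means that the loss was well resolved, not that a larger fraction of the binding was lost. By the peak names, summits and peak scores come from the soma TIR1 strain, so they were made from other animals than the germline scores. In chromatin of whole animals, loss from fewer nuclei and a smaller loss in each nucleus cannot be told apart. The sources used here name no genome build, and genes were assigned with the WBcel235 annotation. Soma-list summits were used to check it. As deposited, 27 of 64 had a protein-coding transcription start site (TSS) within 200 bp. After a shift of 500 bp down or up the chromosome, 16 and 11 did. By chromosome, the count as deposited was above both moved counts on I and V only, so distances to genes on the others rest on a fit that was not resolved there.

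The score of germline loss spanned a wide range and followed the strength of the peak. Over the 349 sites the germline differential score had a median of 137, with quartiles of 56.2 and 330, a lowest value of 14.3 and a highest of 4492. The germline list held the weaker part of this range, with a median of 45.02 (14.3 to 480), and the shared list the stronger, with a median of 180 (15.8 to 4492). The peak scores differed more widely between the lists, with medians of 607 in the germline list and 7994 in the shared list. Across sites the 2 scores had a Spearman correlation of 0.89 (n = 349), and of 0.80 within the germline list (n = 92) and 0.86 within the shared list (n = 257). Sites of a group share their libraries, and a score made from a p-value grows with the number of reads at a site, so these correlations are given as descriptions.

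**Figure D1:**
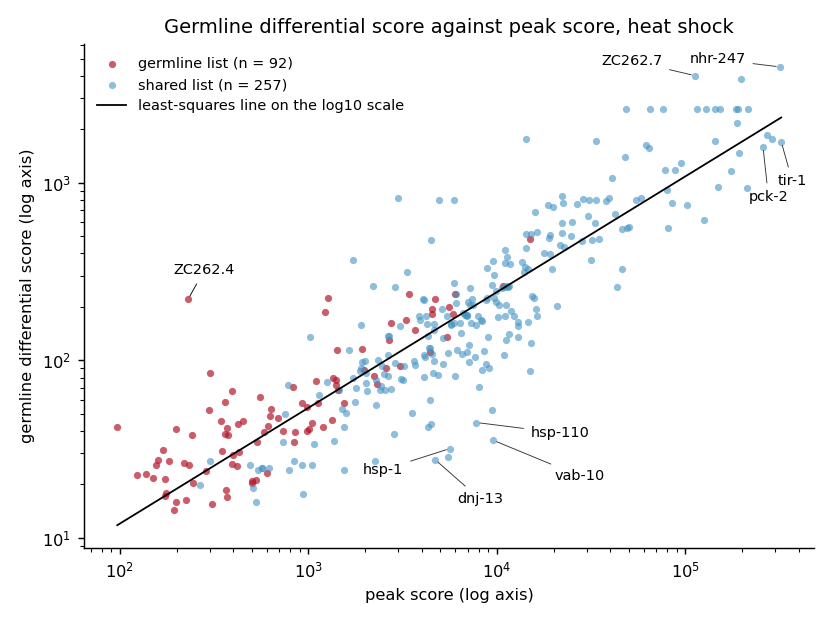
Germline differential score (vertical, log axis) against peak score (horizontal, log axis) for the 92 germline-list and 257 shared-list summits after heat shock; each point is 1 summit, and the line is a least-squares fit on the log10 scale over all 349. Points follow the line over the whole range, with dnj-13, hsp-1, hsp-110 and vab-10 far below it and a summit near ZC262.4 far above it.

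The lists followed each other along the peak score, when the 441 common summits were divided by it into 4 bins of 110 or 111. In the lowest bin, with peak scores of 40.8 to 525, 46 of 111 were lost on germline depletion (41.4%), and 42 of these were in the germline list. In the lower middle bin the count was 90 of 110, with 36 in the germline list and 54 in the shared list. In the upper middle bin it was 106 of 110 and in the highest bin 107 of 110, with 13 and 1 in the germline list. The 3 summits of the highest bin that were in neither the germline nor the shared list lay at heat-inducible chaperone genes. One, with a peak score of 55981, lay 162 bp from a TSS of F44E5.4, an inducible HSP70 gene. The others, with peak scores of 19557 and 19033, lay 133 and 172 bp from TSSs of copies of hsp-16.1, a small heat shock protein gene. These copies are near-identical and may share reads, so their peaks are uncertain. No germline score is given for these 3 summits.

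**Figure D2:**
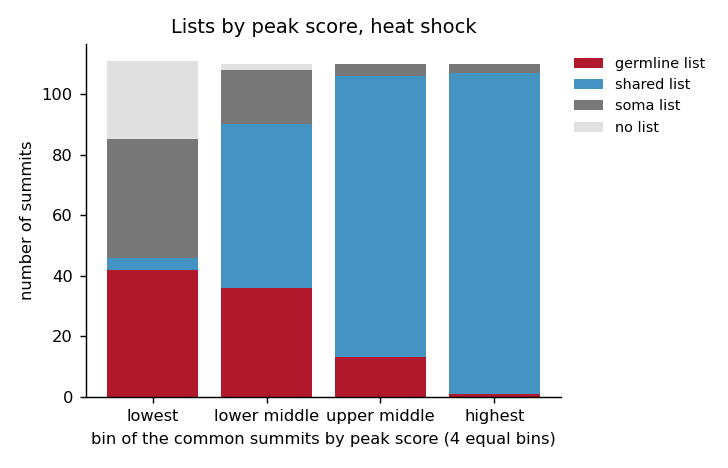
Number of common summits after heat shock in the germline list, the shared list, the soma list and no list (stacked bars), by bin of the 441 summits ordered by peak score, lowest bin on the left. The germline list makes up 42 of 111 summits in the lowest bin and 1 of 110 in the highest, and the shared list 4 and 106.

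The highest germline scores stood in intergenic sequence, which held 65.9% of the 349 summits. The highest, 4492 with a peak score of 316157, was an intergenic summit at position 15321119 on chromosome V, 1863 bp upstream of nhr-247, a nuclear hormone receptor gene. The next, 4011, lay at 8344521 on chromosome III, 185 bp upstream of ZC262.7, with a peak score of 112080. The third, 3820, was intergenic at 2003067 on chromosome X, 5033 bp from Y40A1A.3. A single region, chrV:7916823-7925168, followed with 2597, and its 10 summits all carry that score. It lies in intergenic sequence upstream of srsx-7, a chemoreceptor gene. Sites inside genes came lower in this order. An intronic summit of col-52, a collagen gene, had 2168 (chromosome I, position 4573488). An intronic summit of tir-1, the gene of a SARM-type adaptor protein, had 1700 and the highest peak score of all, 322070 (chromosome III, 3897317). A summit in an intron of zyg-9, which encodes a microtubule regulator of the early embryonic spindle, had 1392 (chromosome II, 8460260).

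In the germline list the highest score, 480, was an intronic summit of Y49F6C.6 (chromosome II, 3365766), the only germline-list summit in the highest bin of peak scores. It was followed by 263.1 at a summit 3 bp from a TSS of Y54B9A.1 (chromosome V, 9439552). That summit shares its region and germline score with a shared-list summit at 9438922, which has a soma score of 44.1. A pair of summits in introns of Y69H2.7 shared a region with 237 (chromosome V, 18694499 and 18695208), and an intergenic summit 1920 bp from ZK1073.2 had 226 (chromosome X, 16101776). A pair 1287 and 1910 bp upstream of ZC262.4 shared a region with 220 (chromosome III, 8335819 and 8336442). An intronic summit of nspg-9 had 201 (chromosome IV, 14461552), an intergenic one near K12B6.9 had 196 (chromosome V, 6297994) and one near Y73B6A.3 had 187 (chromosome IV, 6734502). At the low end, the lowest score of all was 14.3, at a summit 379 bp upstream of the chemoreceptor gene srw-77 (chromosome V, 16644037), followed by 15.5 near Y53F4B.26 in the germline list and 15.8 near the F-box gene fbxb-39 in the shared list. Summits outside the lists have no germline score, so none can be given for those just outside.

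Few sites lost on germline depletion lay near a TSS. Of the 349, 65 had a protein-coding TSS within 1000 bp (18.6%, exact binomial 95% interval 14.7 to 23.1), against 64 of the 92 other common summits (69.6%, 59.1 to 78.7). The shares differed by -50.9 percentage points (adjusted p = 3.61e-19, two-sided Fisher's exact test, Benjamini-Hochberg over 6 tests of position). The measure takes both sides of a TSS. Of the 65, 39 lay upstream of the nearest TSS and 26 downstream, against 58 and 6 of the 64 others. Within 200 bp of a TSS there were 6 of 349, against 30 of 92. Seen from the genes, 50.4% of the 129 summits within 1000 bp of a TSS were lost on germline depletion, against the 79.1% of all common summits. The median distance to a TSS was 2614 bp, against 326 bp for the other summits. Intergenic sequence held 230 of the 349 summits (65.9%), against 65 of the 92 others (70.7%). Introns held 113 (32.4%), in 87 host genes or overlapping host pairs, against 22 of the others (23.9%). These shares were not tested. A 3' UTR held 3, a 5' UTR 2 and a coding exon 1. The intronic summits had a median germline score of 117 and the intergenic ones 161.

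The lists differ in peak score from the other summits, so the share within 1000 bp of a TSS was also read within bins of the peak score. In the lowest bin 30.4% of 46 sites lost on germline depletion lay within 1000 bp of a TSS, against 66.2% of 65 others. In the lower middle bin it was 17 of 90, against 14 of 20. In the 2 upper bins it was 17.9% of 106 and 14.0% of 107, against all of 4 and of 3 others. The share was thus lower at germline-lost sites in every bin. These within-bin shares were not tested. Between the lists, the share was 25.0% of the 92 germline-list summits (16.6 to 35.1) and 16.3% of the 257 shared-list summits (12.0 to 21.4), 8.66 points apart, which did not pass (Fisher's exact test, adjusted p = 0.128). With a distance of 2000 bp it was 18.6 points and passed (Fisher's exact test, adjusted p = 0.00389). The p-values treat summits as independent units, cover only the counting of summits, and say nothing of the spread between animals.

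**Figure D3:**
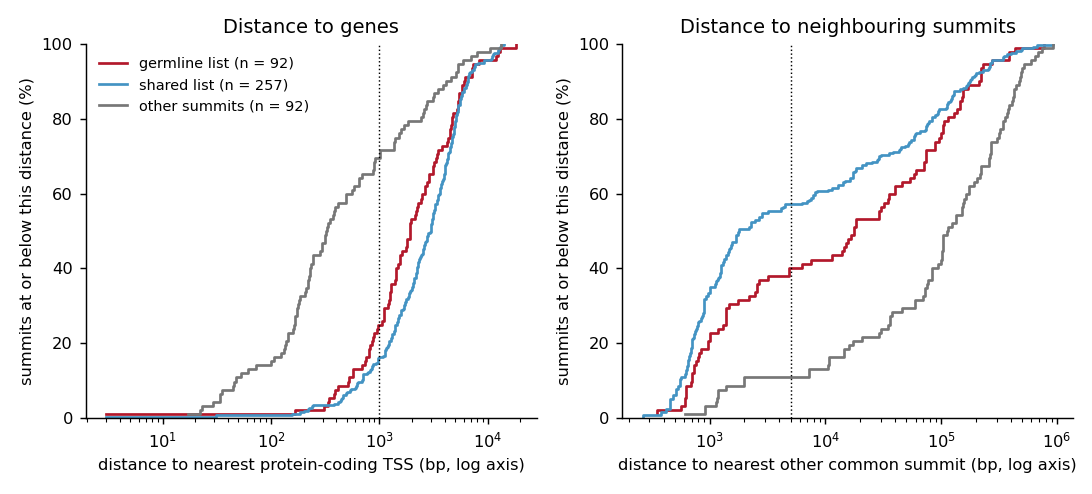
Cumulative share of summits (vertical, %) by distance to the nearest protein-coding TSS (left, log axis) and to the nearest other common summit (right, log axis), for the germline list (n = 92), the shared list (n = 257) and the other common summits (n = 92); dotted lines mark 1000 bp and 5000 bp. At 1000 bp from a TSS the curves stand at 25.0%, 16.3% and 69.6%, and at 5000 bp from a neighbouring summit at 40.2%, 57.2% and 10.9%.

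Many of these sites came in groups. Of the 349, 184 had another common summit within 5000 bp (52.7%, exact binomial 95% interval 47.3 to 58.1), against 10 of the 92 other summits (10.9%, 5.34 to 19.1). The shares lay 41.9 points apart (adjusted p = 1.06e-13, two-sided Fisher's exact test). Among summits at or above the median peak score, where 7 others remain, it was 27.5 points and did not pass (Fisher's exact test, adjusted p = 0.741). In the lowest bin of peak score the share was 37.0% of 46, against 7.69% of 65 others. In the lower middle bin it was 53.3% of 90, against 15.0% of 20, and in the upper middle bin 57.5% of 106, against 0 of 4. In the highest bin the order was the other way, with 54.2% of 107 against 2 of 3 others. These within-bin shares were not tested. The share was 40.2% of germline-list summits (30.1 to 50.96) and 57.2% of shared-list summits (50.9 to 63.3), a gap of -16.98 points (adjusted p = 0.0145, Fisher's exact test). This difference turned to 1.14 points among summits at or above the median peak score (Fisher's exact test, adjusted p = 1). Chained at 5000 bp, the common summits formed 75 clusters of 2 or more, and 68 of these held only sites lost on germline depletion. In the 21 clusters of 3 or more summits, 84 of 86 summits were lost on germline depletion and none was in the soma list. Of all 441 common summits, 79.1% were lost on germline depletion and 64 were in the soma list. Neighbouring summits within clusters lay a median of 934 bp apart (quartiles 685 and 1456 bp).

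The largest cluster lay upstream of srsx-7 on chromosome V. Its 11 summits, all in the shared list, span 10691 bp between positions 7913384 and 7924075, with spacings of 419 to 4302 bp. Their peak scores run from 45784 to 213386, so each of them is in the highest bin. The 10 that share chrV:7916823-7925168 have a germline score of 2597 and a soma score of 790, and the other, at 7913384, has a germline score of 550 and a soma score of 156. The next cluster was weaker, with 8 shared-list summits over 4046 bp on chromosome IV (14476732 to 14480778) near Y57G11A.4, peak scores of 3861 to 16235 and a highest germline score of 178. The third held 6 shared-list summits in introns of srt-50, a chemoreceptor gene (chromosome IV, 15076803 to 15081563), with peak scores of 543 to 5909. There were 7 clusters of 4. They lay in introns of oat-1, an organic anion transporter gene (chromosome IV, highest germline score 823), near cec-8, a chromodomain protein gene (chromosome III, 804), near djr-1.2, a DJ-1 family gene (chromosome V, 688), and near C39F7.1 (chromosome V, 593). The others lay near Y9C9A.8 and str-158 (chromosome IV, 430), near Y69H2.7 and nhr-241 (chromosome V, 237), with 3 of its summits in the germline list, and near Y53F4B.25 (chromosome II, 135), where 1 summit was in no list. The region is the unit of the depletion comparison: the 349 summits lie in 302 regions, of which 28 hold several summits and 75 summits in all. In 6 regions, summits of the germline list and of the shared list lie together.

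Chromosome X held 37 of the 349 sites (10.6%, exact binomial 95% interval 7.58 to 14.3) and 8 of the 92 others (8.70%, 3.83 to 16.42), 1.91 points apart, which did not pass (Fisher's exact test, adjusted p = 0.701). By list, X held 8 of 92 germline-list summits and 29 of 257 shared-list summits (Fisher's exact test, adjusted p = 0.671). Chromosome V held 99 of the 349 (28.4%) and 24 of the 92 others (26.1%), which are near the same share. Chromosome IV held 91 of the 349 (26.1%) and 16 of the others (17.4%). The germline list had 36 of its 92 summits on V, against 63 of 257 in the shared list. On IV the order was the other way, with 13 of 92 and 78 of 257. The counts on IV and V were not tested.

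The genes beside these sites were few. Of 19973 protein-coding genes, 68 had such a summit within 1000 bp of a TSS (0.34%). Among the 435 genes of 16 lists, covering chaperones, HSF-1 regulators, histones, ribosomal proteins, the proteasome, germline pathways and soma markers, 7 did (1.61%). The chaperone genes among these 7 were hsp-1, the constitutive HSP70, hsp-110, an HSP110 nucleotide exchange factor, and dnj-13, a J-domain co-chaperone. They are 2 of 11 HSP70 and HSP110 genes and 1 of 29 J-domain genes. A further 5 HSP70 and HSP110 genes and 1 J-domain gene had only another common summit. None of 16 small heat shock protein genes, 12 HSP90 and co-chaperone genes, 14 genes of the CCT chaperonin and prefoldin, 10 mitochondrial chaperone and protease genes and 2 BAG nucleotide exchange factor genes had one. In these 5 families 6, 6, 2, 3 and 2 genes had another common summit instead. Of the genes near germline-lost sites, 3 of 72 histone genes (his-5, his-6 and his-39) lay at a single germline-list summit on chromosome V (8535940), with a germline score of 57.5. The proteasome subunit gene rpn-3 shares the summit of hsp-110. It is 1 of 36 ubiquitin and proteasome genes, and 3 others of these had only another common summit. The lists of P granule and small RNA genes, meiosis genes, centromere and spindle genes, germline mRNA regulators, ribosomal proteins, HSF-1 regulators and soma markers had 0 of 29, 30, 29, 33, 83, 4 and 26. In these lists 1, 0, 2, 0, 2, 1 and 0 genes had another common summit instead. The small RNA list did not count pid-3, a piRNA pathway gene, or eri-12, by its name an enhanced RNAi gene. Both have such a summit within 1000 bp, with germline scores of 27.6 and 214. The 0 of that list thus holds for the listed genes only.

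By peak score, the strongest sites within 1000 bp of a TSS were in the shared list. The summit in the 5' UTR of pck-2, a phosphoenolpyruvate carboxykinase gene, had a peak score of 257729 and a germline score of 1591 (chromosome I, 7869252). The intronic site of col-52 and the site upstream of ZC262.7, given above, came next. C53C11.4 on chromosome X had a germline score of 750 (17311697), and a pair of summits 707 and 971 bp from ZK1053.2 on chromosome I shared a region with 1179. Intronic summits of nhr-163, another nuclear hormone receptor gene, of W01A11.1 and of vamp-8, a SNARE protein gene, had 840, 766 and 445. An intronic summit of glb-33, a globin gene, had 125. In the germline list, Y54B9A.1 was followed by srw-10, a chemoreceptor gene, with a germline score of 93.5, and arrd-16, an arrestin domain gene, with 57.8. The histone summit came next. Then came the F-box gene fbxa-194 with 34.7, the chemoreceptor gene srh-118 with 42.4, the F-box gene fbxb-117 with 39.5, F55C9.6 with 61.8, C08E8.5 with 34.8 and acs-15, an acyl-CoA synthetase gene, with 66.9. Genes with a role in the germline were present as single cases, chosen after their values were seen. An intronic summit 829 bp downstream of a TSS of par-1, the polarity kinase of the early embryo, had 41.6. A summit within 1000 bp of pid-3, a piRNA pathway gene, and of its neighbour spe-47 had 27.6.

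The nearest TSS belonged to a chemoreceptor gene at 44 of the 349 sites (12.61%) and at 3 of the 92 other summits (3.26%). Of the 44, 11 were nearest to srsx-7 and 6 to srt-50, in the clusters described above. Counted once per gene, 25 of the 254 distinct nearest genes were chemoreceptor genes (9.84%), against 3 of 90 for the other summits (3.33%). With 1 summit per region the share was 32 of 302 (10.6%). Such genes make up 6.83% of all protein-coding genes. F-box genes were nearest at 11 sites (3.15%), with 8 distinct genes, and at 0 of the others, and make up 1.61% of genes. Both families were chosen after the nearest genes were seen and the shares were not tested. Nearest genes in long intergenic stretches are counted more often than their number. A non-coding gene or pseudogene overlapped 24 of the 349 summits, against 5 of the 92 others, and a pseudogene 16, against 0.

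The 3 chaperone sites had low germline scores for the strength of their peaks. The line of germline score on peak score, fitted on the log10 scale with a slope of 0.65, gives the germline score that is usual for a peak of a given strength. The summit upstream of dnj-13, inside an intron of dhgd-1 (chromosome II, 11545479), had a germline score of 27.5 at a peak score of 4711, or 0.186 times the value on the line. The summit upstream of hsp-1 (chromosome IV, 17278575) had 31.9 at a peak score of 5629, or 0.191 times that value. The summit upstream of hsp-110 (chromosome III, 8447127) had 44.7 at a peak score of 7791, or 0.217 times. They were the third, the fourth and the fifth lowest of the 349 relative to the line. They kept these ranks with 1 summit per region (n = 302) and in the shared list alone (n = 257). The lowest were an intronic summit of vab-10, a spectraplakin gene, with 35.5 at a peak score of 9575 (chromosome I, 11763473), and a summit in the 3' UTR of Y75B8A.6, nearest to a TSS of lron-12, with 28.7 at a peak score of 5482 (chromosome III, 12123619). The next above hsp-110 was an intronic summit of Y105C5A.15 with 52.3 at a peak score of 9403, nearly as far below the line (chromosome IV, 15709445). The chaperone sites thus lie within a low tail that other sites share. These ranks were looked up after the scores had been seen, and the line is a description with no test. At the other end, the summit 1287 bp from ZC262.4 had 220 where the line gives 20.7, and an intronic summit of oat-1 (chromosome IV, 8467018) had 823 where it gives 110. Each shares its region, and thus its germline score, with a neighbouring summit of higher peak score.

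At the 5 sites lowest relative to the line, and at Y105C5A.15 (52.3 in the germline and 185 in the soma), the soma differential score exceeded the germline one. In the shared list the germline score was the higher at 233 of 257 summits, with a median ratio of germline to soma score of 3.29 (quartiles 1.84 and 5.96). These summits lie in 219 regions of germline loss, and summits of 1 region repeat its germline score. The median is the ratio of chrV:7916823-7925168 near srsx-7, repeated at each of its summits. At vab-10 the scores were 35.5 in the germline and 381 in the soma, the lowest ratio of all. At the summit in Y75B8A.6 they were 28.7 and 204, at hsp-110 44.7 and 163, at dnj-13 27.5 and 82.0, and at hsp-1 31.9 and 46.2. All 3 chaperone sites were thus among the 24 with the higher soma score. Those 24 had a median germline score of 40.3 at a median peak score of 4597. Of them, 6 lay within 1000 bp of a TSS, against 42 of all 257 shared-list summits, which was not tested. The highest ratio stood at ZC262.7, with 4011 in the germline and 85.0 in the soma. An intergenic site near F28H1.5 had 729 and 21.9 (chromosome I, 3980927), a site near djr-1.2 had 688 and 21.7 (chromosome V, 4052885), and zyg-9 had 1392 and 57.9. Over the shared list the Spearman correlation of germline with soma score was 0.54, below that of either with the peak score (0.86 and 0.72). The 2 scores come from strains with different libraries and TIR1 promoters, and a ratio of them is not a ratio of binding lost.

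**Figure D4:**
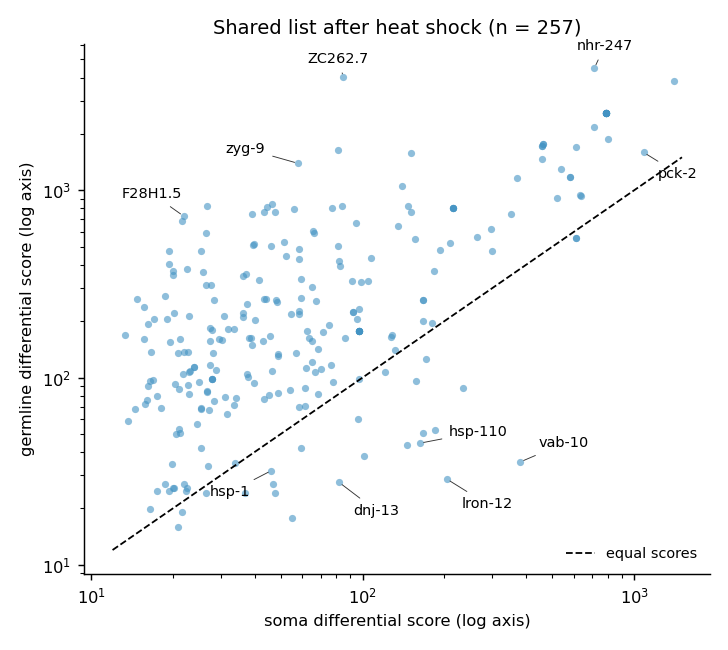
Germline differential score (vertical, log axis) against soma differential score (horizontal, log axis) for the 257 shared-list summits after heat shock; each point is 1 summit and the dashed line marks equal scores. Most points, 233, lie above the line; vab-10, hsp-110, dnj-13 and hsp-1 lie below it, and ZC262.7 is farthest above.

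Most of these sites were already lost on germline depletion without heat. Of the 349, 288 had a common summit at 20 °C within 100 bp (82.5%, exact binomial 95% interval 78.1 to 86.4), with 51 of 92 in the germline list (55.4%, 44.7 to 65.8) and 237 of 257 in the shared list (92.2%, 88.2 to 95.2). Every one of the 288 was listed at 20 °C, 103 in the germline list and 185 in the shared list. No such shares are given for the other common summits after heat shock or for all common summits at 20 °C. The overlap is therefore not shown to be particular to germline-lost sites. Of the germline-list summits after heat shock, 36 were in the germline list at 20 °C and 15 in the shared list. Of the shared-list summits, 67 were in the germline list at 20 °C and 170 in the shared list. For 302 sites the region of germline loss overlapped one listed at 20 °C, and the Spearman correlation of the scores after heat shock and at 20 °C was 0.89. The score after heat shock was the lower at 248 of the 302, with a median ratio of 0.581 to the score at 20 °C. These 302 are summits in 255 regions, and summits of 1 region repeat its score in the count and in the median. With 1 summit per region the Spearman correlation was 0.88. The region names after heat shock carry a tag that those at 20 °C lack, whose meaning is not stated, and the depths are unknown. No change in binding is therefore read from the ratio of the scores.

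Single sites departed from the median ratio. The lowest ratio of all stood at hsp-1, with 31.9 after heat shock and 458 at 20 °C, or 0.0695. At hsp-110 the scores were 44.7 and 84.0 and at dnj-13 27.5 and 46.4, both near the median ratio. An intergenic site near the F-box gene fbxa-190 (chromosome X, 1375247) had 931 after heat shock and 12080 at 20 °C, and the intronic site of tir-1 had 1700 and 17407. Among the sites with a higher score after heat shock, the intronic site of nspg-9 had 201 and 52.4. A region on chromosome X with 2 summits, at 2058109 and 2058981, had 1771 and 511, and ZC262.7 had 4011 and 2464. No region of germline loss at 20 °C was listed at 47 sites, 37 of them in the germline list and 10 in the shared list, and their median germline score was 25.8. The highest of these was an intronic summit of Y32B12B.2 nearest to srbc-65 (chromosome V, 16548247), with 592, followed by an intergenic one near rcq-5 (chromosome III, 4051741), with 162. These scores are above the median of 137 for all 349 sites, while most sites without a region at 20 °C were below it.

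**Figure D5:**
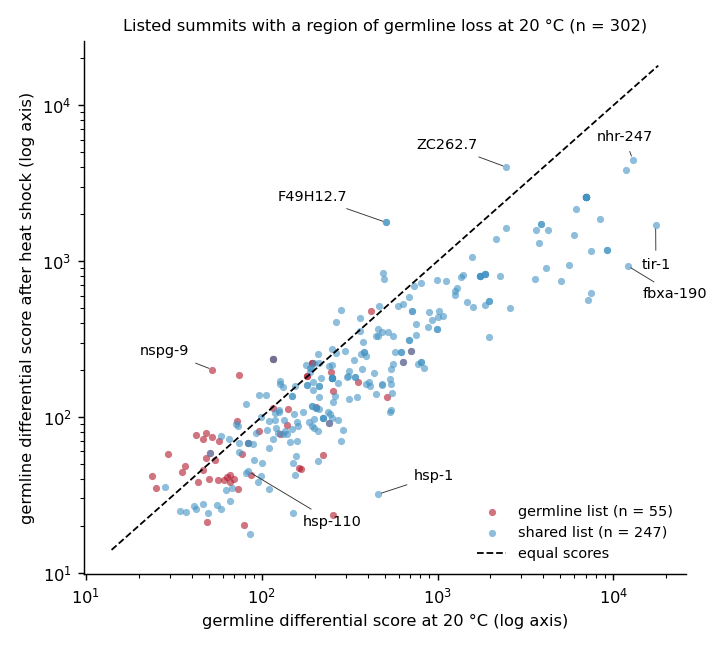
Germline differential score after heat shock (vertical, log axis) against that at 20 °C (horizontal, log axis) for the 302 sites with an overlapping region of germline loss at 20 °C; each point is 1 summit and the dashed line marks equal scores. Most points, 248, lie below the line, hsp-1 farthest by ratio, while nspg-9, F49H12.7 (the nearest gene of the summit at 2058981 on chromosome X) and ZC262.7 lie above it.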

How the data were processed

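HSF-1 ChIP libraries were sequenced from young adults of strains JTL621 and JTL611. Per the submitters' processing notes, Bowtie2 and MACS2 were used, with no versions or settings. The deposited lists give, per the file headers, a peak score per summit and a differential score per region, and both were used as a score as the authors filed it. The sources used here give no genome build, pooling of replicates or depth. No per-library test, interval or floor was possible.

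Exact repeat rows were dropped and no filter on low values was used. Summits were annotated with Ensembl release 115 of WBcel235. Shares were compared with Fisher's exact test (two-sided, Benjamini-Hochberg over 6 tests, threshold 0.05), with exact binomial 95% intervals that cover counting error only. Scores at 20 °C were taken from the region with the largest overlap. Named genes were those of the 10 highest germline scores and the 10 strongest peaks within 1000 bp of a TSS in each list, list genes within 1000 bp, and the lowest scores. Other genes were picked with their values in view. The sites and lists were chosen with earlier results of these data known. Functions were tested on simulated sites. The planned search for heat shock elements was left out, since no genome sequence is used. Python 3.11.15, SciPy 1.17.1 and pandas 2.3.3 were used.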

Additional observations from a re-analysis of the deposited data

How the results depend on the processing

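No paired analysis was possible because the lists hold no value per library, and for the same reason no replicate could be left out. The lower share within 1000 bp of a TSS and the higher share with a neighbouring summit, at germline-lost sites against other summits, kept their direction under 1 summit per region, summits at or above the median peak score, the soma list as the other set, and other distances. The first passed throughout. For the second, summits left out under 1 summit per region still counted as neighbours, so that setting does not exclude neighbours within a region. The share with a neighbour did not pass at or above the median peak score (27.5 points, Fisher's exact test, adjusted p = 0.741), where 7 other summits remain. Between the germline and shared lists, that setting gave -2.21 points for the TSS share and 1.14 points for the share with a neighbour (both adjusted p = 1, Fisher's exact test). A TSS distance of 2000 bp brought the TSS share past the threshold (18.6 points, Fisher's exact test, adjusted p = 0.00389, range over its alternatives 0.00389 to 1). The cause of these changes was not tested. Correlations moved by at most 0.1 and the share with a counterpart at 20 °C stayed within its interval. The searches for heat shock elements near member genes, with their alternatives, were not run. Depth limits every statement: it is unknown, and a site absent from a list may be one that was not resolved.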
